A study of Mus musculus with 96 samples.

Results

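The FASTK family and the mitochondrial RNA factors that work beside it were followed in single mouse oocytes and embryos from fertilization to the morula. The 10 genes were taken by their GENCODE symbol from 55401 gene rows. They are 6 FASTK genes (Fastk, Fastkd1, Fastkd2, Fastkd3, Fastkd5 and Tbrg4, also called Fastkd4) together with Lrpprc, Slirp, Tfam and Polrmt. They were chosen by earlier results of these data, in which Fastkd2 was low at 0 h against oocytes and high again at 12 h. Those comparisons are therefore described below without a test.

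The study collected 96 single oocytes or embryos of the strain C57BL/6J, with no treatment and no genetic change named in the labels. Females were superovulated with PMSG and then hCG 46 h later and mated to males of the same strain, and collection began 12 h after hCG. Cumulus cells, the follicle cells around the egg, were removed with hyaluronidase, and embryos were cultured in KSOM. There were 8 oocytes and 7 morulae. Embryos labelled 0, 2, 8, 10, 12, 14 and 20 h numbered 5 each, those of 16 h and 36 h 8 each, and there were 2 of 4 h, 3 of 6 h, 9 of 18 h, 10 of 22 h and 6 of 24 h. The 0 h to 36 h embryos were one cohort for cDNA synthesis, while oocytes and morulae were separate batches, so batch and stage cannot be told apart in any comparison with those groups. The labels do not say which embryos shared a mother, so p-values measure the spread between these embryos. They also do not explain a letter b that ends some titles from 16 h to 24 h. The 4 h and 6 h embryos are titled as a single series, with a letter b in its code that is likewise unexplained.

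Mitochondrial DNA is read as long transcripts that are cut into rRNAs, tRNAs and mRNAs, and proteins encoded in the nucleus make, cut, stabilise and translate these RNAs. POLRMT is the polymerase and TFAM packages mitochondrial DNA and opens its promoters. LRPPRC and SLIRP form a complex that stabilises mitochondrial mRNAs. FASTK proteins are RNA-binding proteins of the mitochondrial matrix, each with its own targets. FASTKD2 sits in mitochondrial RNA granules and is needed for the large mitochondrial rRNA, mt-Rnr2, and assembly of the large ribosomal subunit. An embryo inherits its mitochondria from the egg.

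Levels are CPM, the counts of a gene scaled by all gene counts of its library, so each value is a share of the captured mRNA of a whole embryo. Fewer copies in the embryo and more RNA of other genes cannot be told apart, nor can fewer cells of a type and less RNA per cell. The cDNA was primed on poly(A). For Fastkd2 and every other member, a change in the amount of mRNA and a change in its tail cannot be told apart. Gene counts per library ran from 10223 to 6795040 with a median of 2099013, and all but 1 library had at least 564266. Summed levels of 8 oocyte markers had a median of 16324 CPM in oocytes and 155 CPM in morulae. The median sum of 8 markers of the 2-cell stage was 2168 CPM at 36 h, and that of 8 morula markers was 3842 CPM in morulae against 410.1 CPM at 36 h. A pair of libraries stood apart. The 10 h replicate 5 had a median correlation of 0.208 with the others of its stage and 38.9 CPM of oocyte markers. It had 1993 CPM of 12 cumulus markers and 10231 CPM of the 8 morula markers, the latter above the morula median of 3842 CPM. What this library holds was not tested. It enters none of the fits of 2 stages but is part of the fit of all 96 libraries. The morula replicate 4 held 10223 gene counts, where a count of 0 allows up to 293.5 CPM, and the calls of members in morulae are also given without it.

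Fastkd2 was the member whose level moved most in the hours around fertilization. The gene (ENSMUSG00000025962.15; chr1:63730614-63754655, plus strand, GRCm38) shares no exon bases with another gene. Its mRNA ends are shown beside those of Fastkd1 and Fastkd3, the other well-detected FASTK genes, because stored egg mRNAs are often controlled through short elements near the 3′ end. Each line gives the last 30 bases of the principal transcript in GENCODE M21, with the AATAAA nearest the 3′ end, the letters of a polyadenylation signal, in capitals. Further matches of AATAAA in the Fastkd1 line are left in lower case.
Fastkd2: gtataactagcttacAATAAAtctgccttt
Fastkd1: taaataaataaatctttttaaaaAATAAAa
Fastkd3: agttatctgctAATAAAagtatgcttttta
The letters TTTTAT or TTTTAAT, forms of the cytoplasmic polyadenylation element, were found in the last 100 bases of 0 of the 10 members. They were found in 17.1% of 20626 genes and in 20.3% of 11088 genes at 1 CPM or more between the oocyte and 14 h. The match is of letters in 1 annotated transcript per gene and in this window only.

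Fastkd2 ranged from 29.8 to 72.6 CPM in the 8 oocytes, with a median of 54.1 CPM. At 0 h the 5 embryos had 0.628, 5.73, 2.63, 13.4 and 17.1 CPM, from 54 counts in all. All 5 lay under the lowest oocyte. At 2 h the embryos had 17.5, 11.02, 19.1, 10.8 and 34.5 CPM, and at 4 h 29.6 and 24.9 CPM. At 6 h they had 40.2, 26.4 and 44.0 CPM, and at 8 h 40.2, 36.4, 74.1, 53.1 and 27.5 CPM. By 12 h the values were 51.7, 98.8, 69.8, 57.6 and 55.8 CPM, and each of the 5 lay above every 0 h embryo. The 14 h embryos had 97.4, 71.7, 87.4, 70.8 and 74.2 CPM.

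The mean went from 53.7 ± 15.0 CPM (SD, n = 8) in oocytes to 7.90 ± 7.09 CPM (SD, n = 5) at 0 h, a ratio of 6.79. It then went to 66.7 ± 19.1 CPM (SD, n = 5) at 12 h, 8.44 times the 0 h mean. In the order of the 16 stage means, 14 h stood highest at 80.3 CPM, followed by 24 h, 36 h, 12 h and 20 h, and 0 h, 2 h, 4 h and 6 h were lowest, with the morula next above them at 37.6 CPM. Without replicate 4 the morula mean was 43.9 ± 16.6 CPM (SD, n = 6), which is above the 16 h mean of 43.3 CPM. Of the 15 gaps between neighbours in this order, 2 were wider than the larger SD of the pair, that between 6 h and 4 h and that between 2 h and 0 h. The first of these rests on few embryos, at 36.9 ± 9.26 CPM (SD, n = 3) and 27.3 ± 3.31 CPM (SD, n = 2). All other neighbours did not differ beyond their spread. The 10 h mean was 45.1 ± 28.6 CPM with replicate 5, which had 0.571 CPM, and 56.2 ± 16.3 CPM (SD, n = 4) without it.

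**Figure D1:**
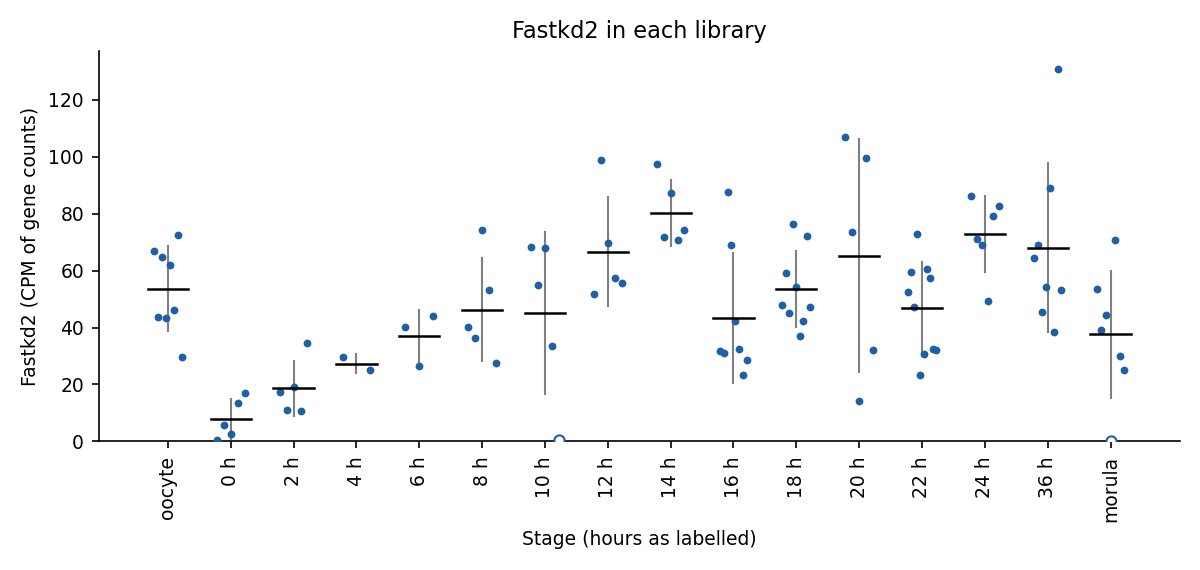
Fastkd2 in each of 96 libraries, in CPM of gene counts, by labelled stage. Points are libraries, black bars are means, grey bars are ± 1 SD, and open points are 10 h replicate 5 and morula replicate 4, so that the low values from 0 h to 2 h and the highest mean, 80.3 CPM at 14 h, can be seen.

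The rise after 2 h was tested in libraries that the choosing comparisons did not use. These stages lie within or just after the course from 0 h to 12 h by which Fastkd2 was chosen. The direction of the rise was thus not independent of that choice, and the p-values do not allow for it. Fastkd2 was higher at 8 h than at 2 h, at 46.3 ± 18.1 CPM against 18.6 ± 9.66 CPM (SD, n = 5 each), a log2 change of 1.57 ± 0.36 (SE; adjusted p = 0.00775, edgeR quasi-likelihood test over all genes). The ranges overlapped, and 4 of 5 embryos at 8 h lay above every 2 h embryo. At 14 h it was higher again, at 80.3 ± 11.7 CPM, a log2 change from 2 h of 2.14 ± 0.30 (SE; edgeR adjusted p = 0.000276), and all 5 embryos lay above every 2 h embryo. Both comparisons use the same 2 h libraries. The 8 h call was lost when all 96 libraries, 10 h replicate 5 and morula replicate 4 among them, were fitted together (edgeR adjusted p = 0.142), and the 14 h call held under each of 17 alternatives.

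Among the members, 3 of 8 tested passed at 8 h, with 2 higher and 1 lower, where the shares of 9097 genes tested were 8.28% higher and 8.88% lower. By 14 h 2 of 8 passed, 1 higher and 1 lower, where 4.11% of 10423 genes were higher and 8.61% lower. At 8 h the median log2 change over all genes was -0.05, and -0.28 when only library sizes were used for scaling, which turned 753 higher and 808 lower calls into 393 and 1375. Summed cumulus markers ran from 62.02 to 667 CPM at 2 h with Pgr and Fshr at 0, from 64.97 to 1329 CPM at 8 h with Pgr and Amh at 0, and from 55.8 to 987 CPM at 14 h with Has2, Pgr and Amh at 0. Their part in these results was not tested.

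Of the other FASTK genes tested, none was called higher at both 8 h and 14 h. Fastkd1, which in other cells limits the level of mt-Nd3 mRNA, was the most abundant member per exon length in each of the 15 stages before the morula, with 19.2 CPM per kilobase at 0 h against 1.35 for Fastkd2. It was 119.8 ± 19.5 CPM (SD, n = 8) in oocytes and 112.6 ± 7.13 CPM (SD, n = 5) at 0 h, with overlapping ranges. From 2 h to 8 h it rose from 101.9 ± 16.5 to 129.6 ± 11.5 CPM (SD, n = 5 each), a log2 change of 0.59 ± 0.17 (SE; edgeR adjusted p = 0.0248), and its ranges overlapped. That call was lost without 2 h replicate 1, 2 or 3 or 8 h replicate 3 or 4 (adjusted p from 0.0511 to 0.0805) and with library size alone (log2 change 0.34, adjusted p = 0.137). It was also lost with no filter on low counts (adjusted p = 0.0894) and in 1 fit of all libraries (adjusted p = 0.599, edgeR). At 14 h it had 108.95 ± 16.6 CPM (SD, n = 5) and was not called against 2 h (log2 change 0.11, adjusted p = 0.756).

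Fastk, the founding member, whose mitochondrial form stabilises mt-Nd6 mRNA, was low throughout, with a median of 7 counts per library. Fastk shares 26.1% of its exon bases with Gm22333 and with Slc4a2 on the opposite strand, but 0% of its principal transcript. Its 2 h embryos had 9.33, 12.6, 8.58, 10.4 and 8.63 CPM, and its 8 h embryos had 0, 4.92, 0.645, 2.29 and 4.47 CPM. The stages did not overlap, and Fastk was lower at 8 h by a log2 change of -1.73 ± 0.55 (SE; edgeR adjusted p = 0.0388). The 14 h embryos had 0.951, 5.31, 5.66, 0.571 and 2.79 CPM, again below every 2 h embryo, with a log2 change of -1.77 ± 0.50 (SE; edgeR adjusted p = 0.0291). Neither call held in every fit that left out 1 embryo. At 8 h it was lost without any single 2 h embryo and without 8 h replicate 1, 3 or 4 (adjusted p from 0.0568 to 0.104). At 14 h it was lost without 2 h replicate 1, 2, 3 or 4 and without 14 h replicate 1, 4 or 5 (adjusted p from 0.0519 to 0.0732). With the replicate number as a block the edgeR adjusted p was 0.0542 at 8 h and 0.0651 at 14 h, and in 1 fit of all libraries it was 0.397 and 0.446. With no filter on low counts the 8 h call was lost as well (edgeR adjusted p = 0.0695). A 10 h mean of 69.4 CPM rests on replicate 5, with 335.9 CPM, and was 2.82 ± 2.89 CPM (SD, n = 4) without it.

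Fastkd3 ran between stage means of 24.6 and 39.1 CPM up to 36 h and was not called in the 4 comparisons among embryos of the 0 h to 36 h cohort. Fastkd5, needed to free mRNAs that no tRNA flanks, such as mt-Co1, had its highest mean at 14 h, 13.1 ± 9.97 CPM (SD, n = 5), of which 14 h replicate 2 held 30.5 CPM. It was not called in any comparison, and 65.2% of its exon bases are shared with Ubox5, so its level is uncertain. Tbrg4 was near absent before 36 h: its highest stage mean before 36 h was 1.25 CPM at 18 h, and the 3 embryos at 6 h had no count.

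To ask whether Fastkd2 moved against its family, its log2(CPM + 1) was set against the mean log2(CPM + 1) of the other 5 FASTK genes in each embryo. The choice of Fastkd2 by its 0 h and 12 h levels bears on the direction of this contrast too. The contrast rose from 0.38 ± 0.67 (SD, n = 5) at 2 h to 2.49 ± 1.08 (SD, n = 5) at 8 h, a difference of 2.12 (exact permutation test, two-sided, p = 0.0159, adjusted over 5 comparisons p = 0.0397). At 14 h it was 2.78 ± 0.41 (SD, n = 5), a difference from 2 h of 2.41 (exact permutation p = 0.00794, adjusted p = 0.0397), with no overlap. Fastk, which fell between the same embryos, is 1 of the 5 genes in the contrast. At 8 h the log2 changes were -1.73 for Fastk, -1.48 for Fastkd5 and -0.07 for Fastkd3, the last 2 not called, and 0.59 for Fastkd1. Tbrg4 was not tested. That of Fastkd2 itself was 1.57, so the difference of 2.12 also holds falls in genes with few counts. The 8 h call was lost without 2 h replicate 1, 2, 3 or 4 or 8 h replicate 1, 3 or 4 (adjusted p from 0.0595 to 0.0992). From 14 h to 24 h the contrast differed by 0.04 (exact permutation p = 0.887). It was lower by 0.52 at 36 h than at 24 h (exact permutation p = 0.0669, adjusted p = 0.112), which passed without 24 h replicate 4 (adjusted p = 0.0376) or 36 h replicate 7 (adjusted p = 0.0265). In morulae it differed from 36 h by -0.28 (exact permutation p = 0.558), and by 0.06 without morula replicate 4.

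**Figure D2:**
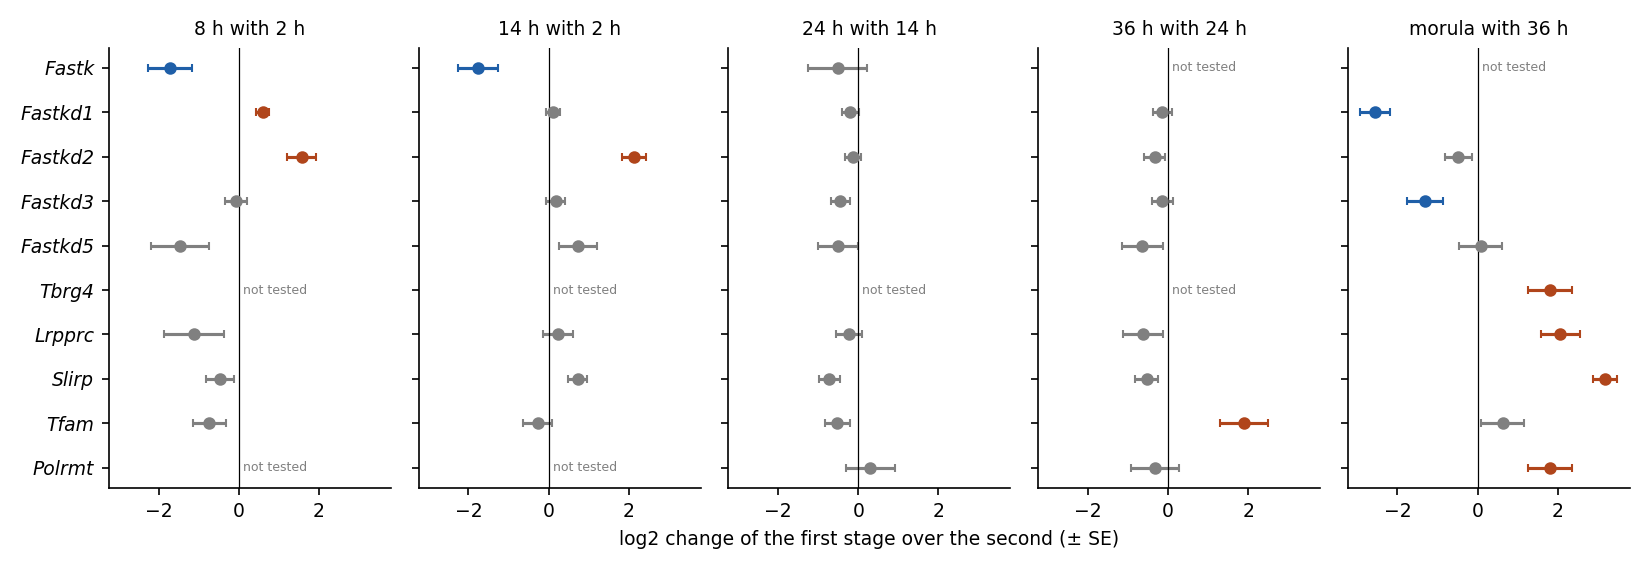
Log2 change of each member in 5 comparisons, as points with ± 1 SE derived from the edgeR F statistic. Red points were higher and blue points lower at an adjusted p under 0.05, grey points did not pass, and members under the filter on low counts are marked as not tested. Fastkd2 passed at 8 h and 14 h, Tfam at 36 h, and 6 members in the morula.

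The RNAs on which these proteins act were read as the sum of the 37 mt- genes. This sum ranged from 13955 to 19631 CPM in oocytes, with a median of 16817 CPM, and from 5778 to 8952 CPM at 0 h. All 0 h embryos lay below every oocyte, and the mean was 2.31 times higher in oocytes. The 12 h mean, 13566 ± 3911 CPM (SD, n = 5), was 1.84 times that of 0 h, and the ranges were apart, which is given without a test. The lowest mean was 5616 CPM at 4 h. At 8 h the mean was 6792 ± 1913 CPM against 6146 ± 2426 CPM (SD, n = 5 each) at 2 h, which did not pass (difference of mean log2 0.18, exact permutation p = 0.556).

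At 14 h the sum was 9947 ± 1503 CPM (SD, n = 5), a difference of mean log2 of 0.77 from 2 h (exact permutation p = 0.0317, adjusted over 5 comparisons p = 0.0397). Of the 5 embryos 4 lay above every 2 h embryo. That call was lost without 2 h replicate 1 or 5 or 14 h replicate 1, 2, 3 or 5 (adjusted p from 0.0595 to 0.0893). At 24 h the sum was 26030 ± 9541 CPM (SD, n = 6), higher than at 14 h by 1.32 on the log2 scale (exact permutation p = 0.00433, adjusted p = 0.00722), with no overlap. The 2 embryos at 24 h with titles ending in b had 14532 and 17766 CPM, under the other 4, which ran from 20698 to 36348 CPM.

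By 36 h the sum reached 99414 ± 30122 CPM (SD, n = 8), or 9.94 ± 3.01% of gene counts, and every embryo lay above every 24 h embryo (difference of mean log2 1.97, exact permutation p = 0.000333, adjusted p = 0.000833). Morulae had 42470 ± 12087 CPM (SD, n = 7), all below every 36 h embryo (difference of mean log2 -1.22, exact permutation p = 0.000155, the smallest this design can give, adjusted p = 0.000777). Without replicate 4, whose sum rests on 304 counts, the morula mean was 44592 ± 11726 CPM (SD, n = 6), and with any 1 embryo left out the difference ran from -1.33 to -1.11.

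**Figure D3:**
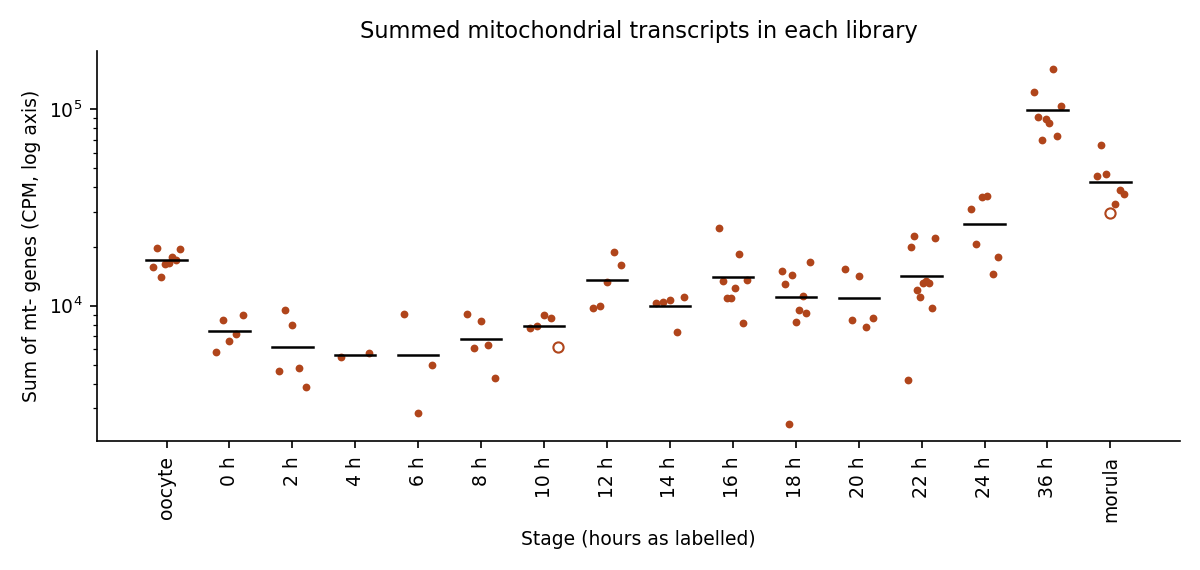
Sum of 37 mt- genes in each library, in CPM on a log axis, by labelled stage. Points are libraries, black bars are means and open points are 10 h replicate 5 and morula replicate 4. The 36 h embryos sit between 69888 and 161558 CPM, above every library of the other stages.

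Set against this sum, captured Fastkd2 mRNA was scarce at 0 h and again at 36 h. At 0 h there were 0.993 ± 0.842 CPM of Fastkd2 per 1000 CPM of mt- genes. This value was 3.71 ± 3.08 by 2 h, 6.85 ± 1.83 by 8 h and 8.19 ± 1.39 by 14 h (SD, n = 5 each). Oocytes had 3.24 ± 1.13 (SD, n = 8). The value was 3.27 ± 1.58 (SD, n = 6) at 24 h, 0.767 ± 0.474 (SD, n = 8) at 36 h and 0.902 ± 0.659 (SD, n = 7) in morulae, replicate 4 with no Fastkd2 count included. At 0 h, 12 h and 14 h the means of Fastkd2 were 7.90, 66.7 and 80.3 CPM, and those of the mt- sum were 7387, 13566 and 9947 CPM. From 24 h to 36 h the mt- sum rose and Fastkd2, at 72.9 ± 13.3 and 68.1 ± 29.8 CPM, was not called (log2 change -0.33, edgeR adjusted p = 0.301).

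Across the 16 stage means, which share libraries and depth between both measures, Fastkd2 and the mt- sum had a Pearson r of 0.434 and a Spearman rho of 0.571. These means include 10 h replicate 5 and morula replicate 4. Within stages, 7 groups of at least 6 embryos were examined and none passed. Pearson r was -0.69 among 8 oocytes (exact permutation p = 0.0571, adjusted over 7 groups p = 0.4) with rho -0.50 (p = 0.216), and -0.76 without the 2 libraries farthest from the median sum. It was -0.20 at 16 h (n = 8, exact permutation p = 0.645; rho -0.14, p = 0.752), 0.215 at 18 h (n = 9, exact permutation p = 0.597; rho 0.15, p = 0.708) and -0.03 at 22 h (n = 10, permutation p = 0.943; rho 0.0667, p = 0.867).

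The later groups gave r of -0.55 at 24 h (n = 6, exact permutation p = 0.267; rho -0.60, p = 0.242), -0.53 at 36 h (n = 8, exact permutation p = 0.175; rho -0.38, p = 0.36) and 0.51 in morulae (n = 7, exact permutation p = 0.233; rho 0.321, p = 0.498). Leaving out the 2 farthest libraries gave -0.74 for 16 h, 0.169 for 18 h, 0.159 for 22 h, -0.23 for 24 h and -0.28 for 36 h. For morulae it gave -0.05, so the value there rested on those libraries. The r of 0.51 in morulae includes replicate 4, whose Fastkd2 count of 0 allows up to 293.5 CPM. A value without that library alone was not computed. Adjusted p-values of r ran from 0.4 to 0.943 and of rho from 0.84 to 0.867. Among the 7 embryos at 22 h with titles ending in b, r was -0.01. The other sets of titles from 16 h to 24 h, with and without b, held at most 5 embryos each, too few for a value.

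**Figure D4:**
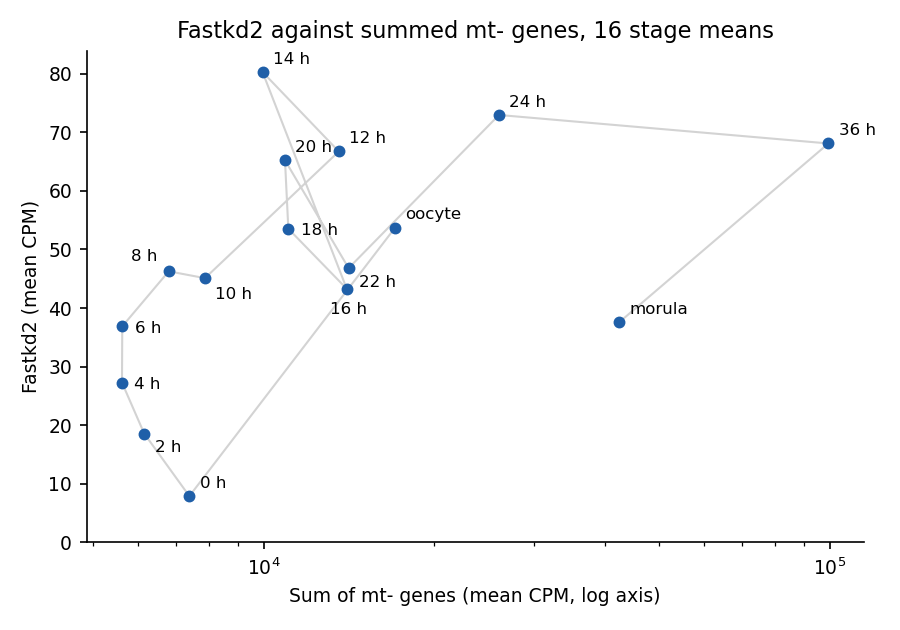
Mean Fastkd2 CPM (vertical axis) against the mean sum of mt- genes in CPM (horizontal log axis) at 16 stages, joined in time order from oocyte to morula. From 0 h to 8 h the path climbs while the sum stays between 5616 and 7387 CPM, and from 24 h to 36 h it runs level in Fastkd2 while the sum goes from 26030 to 99414 CPM.

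The mitochondrial RNAs tied to named FASTK proteins were read one by one, a set chosen after the members' levels were known. The cDNA was primed on poly(A), so a change in level and a change in tailing cannot be told apart. The rRNA mt-Rnr2, bound by FASTKD2, had 1185 ± 416.5 CPM at 0 h. It had 543.9 ± 116.6 CPM (SD, n = 5 each) at 8 h. It was not called at 8 h or 14 h against 2 h (edgeR adjusted p = 0.439 and 0.429). It rose at 24 h to 2633 ± 1649 CPM (SD, n = 6), a log2 change from 14 h of 1.42 ± 0.36 (SE; edgeR adjusted p = 0.0122). The 24 h embryos with titles ending in b had 3260 and 5703 CPM, above those without, which had 1822, 1237, 1717 and 2059 CPM. The 14 h embryos ran from 796 to 1256 CPM. The part of the titles ending in b in this call was not tested. At 36 h mt-Rnr2 rose to 6149 ± 1711 CPM (SD, n = 8; log2 change 1.02, edgeR adjusted p = 0.0214). In morulae it was 9224 ± 4324 CPM (SD, n = 7) and was not called against 36 h (log2 change 0.65, edgeR adjusted p = 0.151). Without replicate 4 the mean was 9914 ± 4294 CPM (SD, n = 6). The edgeR values for mitochondrial RNAs in morulae include that library.

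The smaller rRNA, mt-Rnr1, fell from 2240 ± 614 CPM (SD, n = 8) at 36 h to 963 ± 349 CPM (SD, n = 7) in morulae, with no overlap (log2 change -1.20 ± 0.35, SE; edgeR adjusted p = 0.00381). The mRNA mt-Nd6, a target of FASTK and FASTKD2 that is read from the other strand than its neighbours, which these libraries do not separate, rose at 24 h (log2 change 0.98, edgeR adjusted p = 0.0265) and at 36 h (log2 change 1.58, adjusted p = 0.00182). It was 715 ± 323 CPM at 36 h and 731 ± 417 CPM in morulae, which did not pass (edgeR adjusted p = 0.808). The morula mean was 821 ± 377 CPM (SD, n = 6) without replicate 4, which had 2 counts.

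mt-Nd3, the mRNA linked to FASTKD1, was called higher in 3 of the 4 comparisons up to 36 h, all but that of 8 h with 2 h. It went from 30.6 ± 12.4 CPM at 2 h to 74.2 ± 14.3 CPM at 14 h (SD, n = 5 each; log2 change 1.26, edgeR adjusted p = 0.00313). By 36 h it had reached 827 ± 329 CPM (SD, n = 8) from 183.6 ± 70.97 CPM (SD, n = 6) at 24 h (log2 change 2.03, edgeR adjusted p = 0.0002). In morulae it fell to 227 ± 63.3 CPM (SD, n = 7; log2 change -1.80, edgeR adjusted p = 0.000152). mt-Co1, linked to FASTKD5, rose from 3690 ± 1672 CPM (SD, n = 6) at 24 h to 12314 ± 3822 CPM (SD, n = 8) at 36 h and fell to 2537 ± 803 CPM (SD, n = 7) in morulae, with edgeR adjusted p = 0.000987 and 1.75e-05. Over the same step into the morula mt-Nd3, mt-Co1 and mt-Rnr1 fell, and mt-Rnr2 and mt-Nd6 did not pass.

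Lrpprc and Slirp, whose proteins work as a pair, were modest before the morula. Stage means of Lrpprc ran from 4.85 CPM at 8 h to 18.4 CPM at 16 h, and it was not called in the 4 comparisons up to 36 h. Slirp shares 97.8% of its exon bases with Alkbh1 and Snw1 on the opposite strand, and SMART-Seq v4 does not mark strand, so its level is uncertain at every stage. Slirp had 19.3 ± 6.33 CPM at 2 h and every 14 h embryo lay above every 2 h embryo, a difference that did not pass (log2 change 0.72 ± 0.25, SE; edgeR adjusted p = 0.0664) except in DESeq2 (adjusted p = 0.0414).

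From 14 h to 24 h 0 of 9 members tested were called by edgeR, and 1 of the 9 had an unadjusted p under 0.05. Of 11467 genes tested 14.2% were higher and 10.8% lower. DESeq2 and library size alone each called 1 member, Slirp. Slirp averaged 19.2 ± 4.74 CPM (SD, n = 6) at 24 h against 31.9 ± 4.44 CPM (SD, n = 5) at 14 h, with no overlap (log2 change -0.72 ± 0.26, SE; edgeR adjusted p = 0.0554). It passed without 24 h replicate 5 (adjusted p = 0.0237) or 6 (adjusted p = 0.0453), the 2 embryos with titles ending in b, and without both (log2 change -0.97, adjusted p = 0.0085).

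Tfam was the only one of 8 members tested to pass from 24 h to 36 h, where 29.1% of 12636 genes tested were higher and 23.2% lower. In the step before, every 24 h embryo lay below every 14 h embryo in Tfam (5.40 ± 0.99 against 7.89 ± 0.988 CPM), which did not pass (edgeR adjusted p = 0.223). Its 24 h embryos ran from 4.27 to 6.63 CPM with a median of 5.24 CPM. Its 36 h embryos had a lowest value of 0.846, a median of 19.4 and a highest value of 56.8 CPM. At 36 h 6 of 8 embryos lay above every 24 h embryo and 1 lay below them all. The mean was 24.5 ± 20.6 CPM (SD, n = 8) at 36 h, up from 5.40 ± 0.99 CPM (SD, n = 6). The log2 change of 1.90 ± 0.60 (SE; edgeR adjusted p = 0.0131) was called in each of 21 alternatives. The polymerase gene Polrmt, at 4.94 ± 2.58 and 4.52 ± 3.35 CPM, was not called. Over all genes the median log2 change was 0.05 here, 0.16 with DESeq2 size factors and 0.29 when only library sizes were used. Summed cumulus markers ran from 34.0 to 129.03 CPM at 24 h and from 24.7 to 564 CPM at 36 h, with Pgr and Amh at 0 in both, and 8 markers of blood and oviduct from 6.04 to 336 CPM at 24 h and from 38.0 to 301.5 CPM at 36 h, with Ptprc and Foxj1 at 0 in both. Their part in the result was not tested.

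Of 9 members tested in morulae, 4 were higher and 2 lower than at 36 h, where 28.2% of 11216 genes tested were higher and 43.5% lower. Calls were thus common over all genes, and the count of 6 in 9 is no result about the members. The median log2 change was 0.62 over these members and -0.55 over all genes tested, the latter being -0.78 with library sizes only and -0.88 with DESeq2 size factors. The 6 calls held in each of 22 alternatives, among them the fit without morula replicate 4. Summed cumulus markers were 24.7 to 564 CPM at 36 h with Pgr and Amh at 0, and 0 to 97.8 CPM in morulae, with 7 of 12 at 0, among them Inhba, Has2 and Fshr. Their part in the result was not tested.

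The 4 members that were higher were the LRPPRC and SLIRP pair, the polymerase and Tbrg4, which stabilises several mitochondrial mRNAs. Slirp had a lowest value of 93.2, a median of 128.2 and a highest of 160.4 CPM in morulae, against 11.9, 14.3 and 23.9 CPM at 36 h. The 6 morulae other than replicate 4, whose 97.8 CPM is 1 count, lay above every 36 h embryo, with a log2 change of 3.18 ± 0.30 (SE; edgeR adjusted p = 2.36e-09) and 3.36 without replicate 4. Alkbh1 averaged 60.99 ± 31.9 CPM in morulae against 19.6 ± 14.1 CPM at 36 h, and Snw1 176 ± 59.1 against 71.95 ± 31.6 CPM (SD, n = 7 and 8).

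Lrpprc went from a median of 6.30 CPM at 36 h (0.769 to 26.7) to 30.4 CPM in morulae (0 to 47.5), and 5 of the 6 morulae other than replicate 4 lay above every 36 h embryo. Its log2 change was 2.06 ± 0.48 (SE; edgeR adjusted p = 0.000537) and 2.24 without replicate 4, the morula with no count. Tbrg4 rose from a median of 3.15 to 13.9 CPM, also with 5 of those 6 above every 36 h embryo (log2 change 1.81 ± 0.55, SE; edgeR adjusted p = 0.00471; 1.96 without replicate 4). Polrmt rose from a median of 3.87 to 13.3 CPM, with 4 of those 6 above (log2 change 1.81 ± 0.56, SE; edgeR adjusted p = 0.00554; 1.94 without replicate 4). Tfam, at 28.2 ± 19.5 CPM (SD, n = 7) in morulae, was not called against 36 h (log2 change 0.62, edgeR adjusted p = 0.299), and its mean was 32.9 ± 16.4 CPM (SD, n = 6) without replicate 4.

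Fastkd1 and Fastkd3 were lower in morulae. Fastkd1 ran from 60.3 to 138.7 CPM at 36 h with a median of 99.3 CPM, and from 0 to 25.2 CPM in morulae with a median of 8.61 CPM. The 6 morulae other than replicate 4 lay below every 36 h embryo, and replicate 4, where 0 counts allow up to 293.5 CPM, cannot be placed (log2 change -2.55 ± 0.37, SE; edgeR adjusted p = 1.52e-06; -2.44 without replicate 4). Fastkd3 went from a median of 27.3 to 8.07 CPM, with 5 of the 6 morulae other than replicate 4 below every 36 h embryo (log2 change -1.31 ± 0.45, SE; edgeR adjusted p = 0.0116; -1.23 without replicate 4). Per exon length, Fastkd1 thus went from the highest of the 10 members at 36 h, 17.0 CPM per kilobase, to 2.22 in the morula, where Slirp had 40.1 and Fastkd2 6.40. Fastkd2 itself had 37.6 ± 22.5 CPM (SD, n = 7) in morulae and was not called (log2 change -0.48 ± 0.33, SE; edgeR adjusted p = 0.202). With DESeq2 size factors it passed (log2 change -0.79, adjusted p = 0.0291), as it did in DESeq2 itself (adjusted p = 0.0253).

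**Figure D5:**
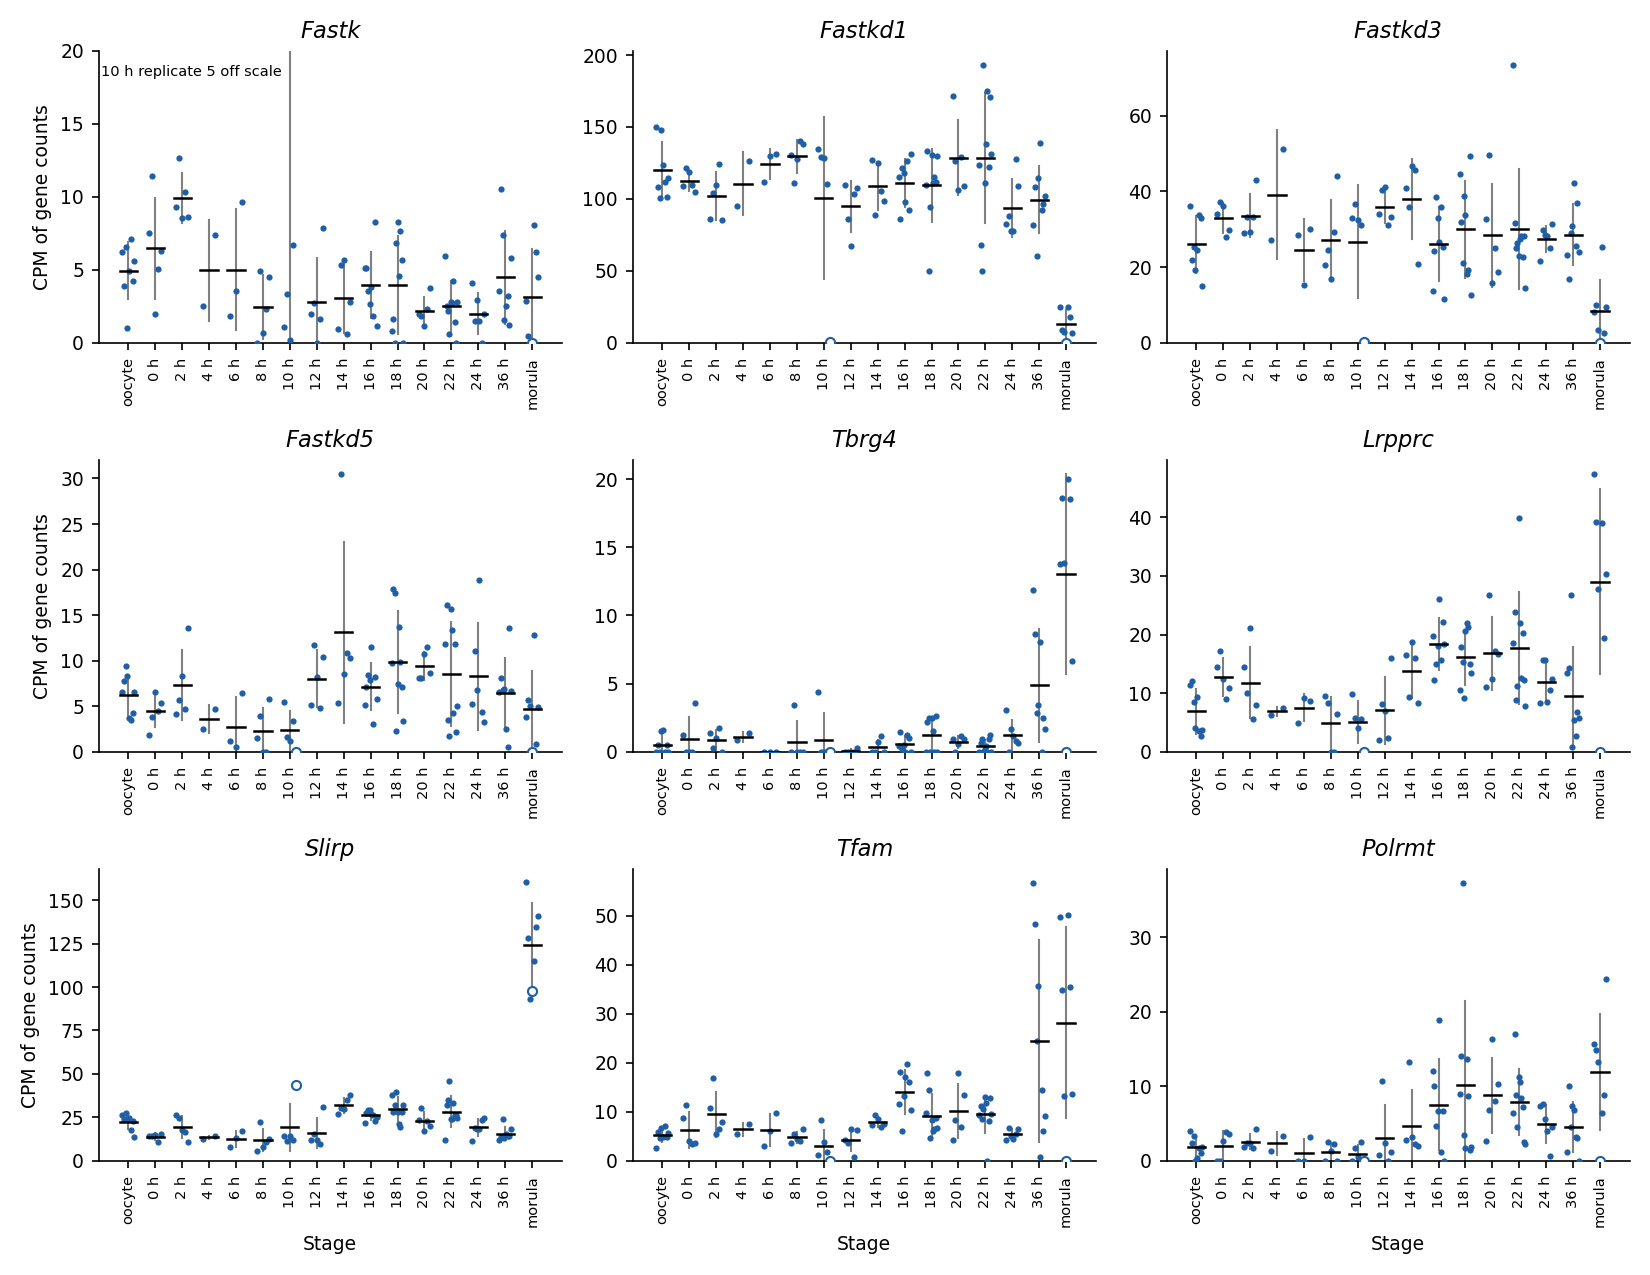
The other 9 members in each library, in CPM of gene counts, by labelled stage. Points are libraries, black bars are means, grey bars are ± 1 SD and open points are 10 h replicate 5 and morula replicate 4; in the Fastk panel the axis ends at 20 CPM, so 10 h replicate 5 at 335.9 CPM and the 10 h mean of 69.4 CPM lie beyond it. Slirp, Lrpprc, Tbrg4 and Polrmt stand higher in morulae, and Fastkd1 and Fastkd3 lower.

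Promoters of 3 members that were higher in morulae are shown with that of Fastkd2, because genes for mitochondrial proteins often carry sites for ETS factors (such as GABPA) and NRF1. RefSeq promoter windows on GRCm38.p6, 250 bases before to 50 after the annotated start, were matched for 10 of 10 members. Capitals mark CCGGAAG, the core of ETS sites, and the NRF1 core (GCGC, then any base, then TGCGC), both read on either strand. Matches of the NRF1 core may overlap each other.
Slirp (chr12:87443646-87443945, plus strand): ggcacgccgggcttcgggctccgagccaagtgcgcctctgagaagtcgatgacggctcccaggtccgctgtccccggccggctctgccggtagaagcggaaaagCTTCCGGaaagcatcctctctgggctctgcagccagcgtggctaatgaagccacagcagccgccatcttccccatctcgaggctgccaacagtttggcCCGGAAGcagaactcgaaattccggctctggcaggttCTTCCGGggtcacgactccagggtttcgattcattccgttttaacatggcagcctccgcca
Tbrg4 (chr11:6626018-6626317, minus strand): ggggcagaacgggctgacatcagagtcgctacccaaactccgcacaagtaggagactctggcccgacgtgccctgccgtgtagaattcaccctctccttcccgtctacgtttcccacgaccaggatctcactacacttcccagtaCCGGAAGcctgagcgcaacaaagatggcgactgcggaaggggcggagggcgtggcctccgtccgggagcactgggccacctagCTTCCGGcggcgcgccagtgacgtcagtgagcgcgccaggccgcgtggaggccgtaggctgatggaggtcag
Polrmt (chr10:79746532-79746831, minus strand): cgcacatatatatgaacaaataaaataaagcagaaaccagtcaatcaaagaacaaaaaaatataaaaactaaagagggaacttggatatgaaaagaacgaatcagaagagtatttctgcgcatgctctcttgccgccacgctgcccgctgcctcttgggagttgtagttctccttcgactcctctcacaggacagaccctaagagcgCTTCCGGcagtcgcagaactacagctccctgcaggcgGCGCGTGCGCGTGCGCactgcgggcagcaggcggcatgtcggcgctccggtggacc
Fastkd2 (chr1:63730375-63730674, plus strand): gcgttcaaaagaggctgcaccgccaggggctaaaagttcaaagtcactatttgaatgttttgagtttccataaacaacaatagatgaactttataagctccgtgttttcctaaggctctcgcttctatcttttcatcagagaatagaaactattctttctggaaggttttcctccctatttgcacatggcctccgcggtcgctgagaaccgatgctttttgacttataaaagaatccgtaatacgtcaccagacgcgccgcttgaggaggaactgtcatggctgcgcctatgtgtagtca
CCGGAAG occurred 3 times in the Slirp window, 2 times in that of Tbrg4 and once each in those of Polrmt, Tfam, Fastk and Fastkd5, so in 6 of 10 members, and in 8.86% of 32851 windows of that length. The NRF1 core occurred 2 times in the Polrmt window and 3 times in that of Fastkd3, and in 4.60% of windows. Neither was found in the windows of Fastkd2, Fastkd1 and Lrpprc. The Fastkd1 window (chr2:69712557-69712856, minus strand) lies inside the GENCODE gene, whose 5′ end is at 69713516, so the sequence around that end was not read. Fastkd3, with 3 NRF1 matches, fell in morulae, and Lrpprc, with none, rose. These are matches of letters and not mapped sites.

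A wider list of 74 genes for mitochondrial transcription, RNA processing, RNA decay, ribosome assembly and translation, with their nuclear regulators, gave the setting. At 8 h 6 of 46 tested were higher and 2 lower than at 2 h. Among all 9097 genes tested, 8.28% were higher and 8.88% lower. The median log2 change was -0.16 on the list against -0.05 over all genes. Highest were the termination factor genes Mterf1a (27.5 against 11.7 CPM; log2 change 1.49, edgeR adjusted p = 0.00602) and Mterf1b (log2 change 1.40), near-identical copies that may share reads, and Nsun3, a tRNA methyltransferase gene (log2 change 0.96). Noa1, a ribosome assembly GTPase gene, went from 12.5 to 2.93 CPM (log2 change -1.87, edgeR adjusted p = 0.0108) and the tRNA 3′-end nuclease gene Elac2 from 17.3 to 5.92 CPM (log2 change -1.28).

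At 14 h 1 of 48 (2.08%) was higher, the RNA-processing gene Ptcd2 (15.3 against 4.64 CPM; log2 change 1.66, edgeR adjusted p = 0.0185), and 4 (8.33%) were lower. Over all genes 4.11% were higher and 8.61% lower. The median log2 change was 0.03 against 0.02 over all genes. The largest falls were those of Noa1 (log2 change -1.56), Rnaseh1, which removes RNA from DNA hybrids (log2 change -1.25), and the regulator Nrf1 (59.7 to 34.0 CPM; log2 change -0.87). At 24 h 9 of 57 were higher than at 14 h and 0 lower, with a median log2 change of 0.31 against 0.03 over all genes. The 9 are 15.8% of the list, near the 14.2% higher over all genes, of which 10.8% were lower. Of them 6 were among the 13 tested genes of RNA processing and modification, led by 1110008L16Rik, the nuclease of mitochondrial RNase P (41.1 against 7.93 CPM; log2 change 2.49, edgeR adjusted p = 0.00192), Mto1 (log2 change 2.20) and Ptcd1 (log2 change 1.63). The members had no call in this step.

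At 36 h 19 of 62 were higher and 17 lower than at 24 h, with a median log2 change of -0.01 against 0.05 over all genes. Higher were the tRNA-modifying genes Gtpbp3 (13.1 against 0.343 CPM; log2 change 4.57, edgeR adjusted p = 0.000368) and Pus1 (log2 change 4.32) and the rRNA methyltransferase gene Mrm1 (log2 change 4.48). Lower were Mettl15, an rRNA methyltransferase gene (48.7 to 3.19 CPM; log2 change -4.10), the ribosome factor Mterf4 (log2 change -2.92) and the tRNA-modifying gene Trit1 (log2 change -2.31). These counts are 30.6% and 27.4% of the list, near the 29.1% and 23.2% over all genes.

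In morulae, replicate 4 included, 19 of 62 (30.6%) were higher and 14 (22.6%) lower than at 36 h, against 28.2% and 43.5% over all genes, with a median log2 change of 0.06 against -0.55 over all genes. Highest were Mtg1, a ribosome assembly GTPase gene (48.6 against 2.73 CPM; log2 change 4.52, edgeR adjusted p = 5.05e-08), the rRNA methyltransferase gene Mrm2 (log2 change 3.26) and Tefm, the elongation factor of POLRMT (62.98 against 9.20 CPM; log2 change 3.16). Lowest were the methyltransferase genes Nsun4 (241.1 to 4.70 CPM; log2 change -5.18) and Nsun3 (70.1 to 4.09 CPM; log2 change -3.77), and Mrm1 (log2 change -2.18). The list for transcription and the genome, beside POLRMT and TFAM, had 7 of 13 higher and 2 lower, and RNA polyadenylation and decay had 0 of 6 higher and 3 lower.

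The genes with a course most like that of Fastkd2, by Pearson r of log2(CPM + 1) over the 16 stage means among 8188 genes at a mean of 10 CPM or more, were Cdc45 (r = 0.876), Gm15446 (0.84), Zfp758 (0.83), Akip1 (0.813) and Cops2 (0.81). No gene reached 0.9. Cdc45, a helicase component for DNA replication, went from a mean of 183 CPM in oocytes to 42.9 CPM at 0 h and back to 199.8 CPM by 12 h. Among the other 9 members r with Fastkd2 ran from -0.30 for Fastk to 0.397 for Fastkd5, and Spearman rho from -0.65 for Fastk to 0.594 for Fastkd5. All of these include 10 h replicate 5 and morula replicate 4, and the 10 h mean of Fastk rests on the former. Without them the Fastkd2 mean was 56.2 in place of 45.1 CPM at 10 h, and 43.9 in place of 37.6 CPM in morulae. The r and rho values share the stages that chose Fastkd2 and are a description.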

How the data were processed

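Single C57BL/6J oocytes and embryos (96 libraries, SMART-Seq v4 cDNA and Nextera XT libraries, per the labels' protocols) were analysed from 1 table of 55401 gene rows and 873 repeat rows. Its values are expected counts as deposited, since 28.4% of nonzero gene values are not whole. Trimmomatic 0.39, STAR, featureCounts and mm10 are named in the submitters' processing notes, and strand, multi-mapping and overlap settings are not given in the sources used here. Values were rounded to whole counts, and CPM was computed here over gene rows only. GENCODE M21 gave symbols for 55034 IDs.

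Stages were compared with edgeR 4.0.16 (quasi-likelihood, low-count filter, TMM, Benjamini-Hochberg over all genes, threshold 0.05; R 4.3.3), 2 stages per fit, after a check on simulated data. The SE of a log2 change is its absolute value divided by the square root of the F statistic. The mt- sum and the Fastkd2 contrast were tested with exact permutation tests, adjusted over 5 comparisons each. Alternatives were DESeq2 1.42.0, other scalings, no filter, pseudocounts 0.5 and 5, mt- genes left out, 1 fit of all libraries, single embryos left out and the title number as a block. No 2 libraries of a stage agreed within sampling noise. The members and lists were chosen with earlier results of these data known. Named were all members, up to 3 genes of the mitochondrial list with the largest called change in each direction per comparison, and the 5 genes whose 16 stage means correlate best with those of Fastkd2.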

Additional observations from a re-analysis of the deposited data

Results flagged for a closer look

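Dixon's 95% limit assumes normally distributed values, which low counts do not follow, so no chance rate is given. In stages of 4 to 10 embryos, a single highest or lowest embryo stood apart by it in 20 of 154 combinations of gene and stage. Of these, 4 were in 10 h replicate 5, which had 335.9 CPM of Fastk (0.173 to 6.67 CPM in the others), 0.762 CPM of Fastkd1 (110.2 to 134.6), 0.19 CPM of Fastkd3 (31.0 to 36.7) and 43.4 CPM of Slirp (11.7 to 14.5).

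Among the FASTK genes, Fastkd1 was low in 18 h replicate 3 at 49.8 CPM (94.5 to 132.98 in the others). Fastkd3 was high in 22 h replicate 1 at 73.5 CPM (14.6 to 31.6) and in morula replicate 5 at 25.2 CPM (0 to 10.0). Fastkd5 was high in 14 h replicate 2 at 30.5 CPM (5.39 to 10.8). Tbrg4 had 3.45 CPM in 8 h replicate 2. In 10 h replicate 1 it had 4.41 CPM. It had 0.282 CPM, from 1 count, in 12 h replicate 5, and 0 in the other embryos of these stages.

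Lrpprc was high in 22 h replicate 5 at 39.9 CPM (7.85 to 23.9). Slirp was low in 0 h replicate 4 at 10.6 CPM (14.3 to 15.3) and high in 12 h replicate 5 at 31.0 CPM (9.60 to 15.3). Tfam had no count in 22 h replicate 7, 0 CPM against 8.17 to 13.1 CPM in the others. Polrmt was high in 2 h replicate 5 at 4.31 CPM (1.73 to 2.45), in 12 h replicate 2 at 10.8 CPM (0 to 2.35), in 14 h replicate 2 at 13.3 CPM (1.95 to 3.19) and in 18 h replicate 3 at 37.3 CPM (1.51 to 14.1). The mt- sum was low in 14 h replicate 4 at 7313 CPM (10272 to 11053).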

How the results depend on the processing

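Of 1255 values under an alternative setting, 1126 kept their direction and side of the threshold, or moved by less than the limit set for them. Where a value changed, the cause was not tested. One fit of all 96 libraries called 10 genes higher and 99 lower at 8 h against 2 h, and 0 members (753, 808 and 3 in the fit of these stages alone). At 14 h it called 44 higher, 316 lower and 1 member (428, 897 and 2), at 36 h against 24 h 2 members (1), and in the morula against 36 h 9321 genes lower (4883). DESeq2 called 1 member at 24 h against 14 h (0), 2 members and 6592 genes higher at 36 h (3671), and 8719 lower in the morula. With no filter, 1 member was called at 8 h, 284 genes higher at 14 h, 6189 higher at 36 h and 12125 lower in the morula. With library size alone 393 genes were higher and 1375 lower at 8 h, and 1 member was called at 24 h. Log2 changes that turned sign were those of Fastkd1 and Fastkd3 at 36 h against 24 h with library size alone (0.10 and 0.0816), and of Fastkd5 in the morula with DESeq2 size factors (-0.26), library size alone (-0.21) and DESeq2 (-0.24). None of the 3 genes was called there. Without titles ending in b, 2542 genes higher, 2342 lower and 1 member were called at 24 h against 14 h (1624, 1238 and 0), Fastkd1 at 36 h had 0.0986, and the Fastkd2 contrast at 24 h was -0.17, the last chosen after seeing the data. The correlation of Fastkd2 with the mt- sum at 22 h was 0.109 with the 13 coding genes and 0.159 without the 2 farthest libraries, and in morulae it was -0.0528 without them.

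Leaving out 1 embryo gave 446 to 967 genes higher, 521 to 988 lower and 1 to 3 members at 8 h. The lowest were without 2 h replicate 1, and without 2 h replicate 3 there were 476 higher. At 14 h it gave 261 to 536 genes higher and 1 to 2 members, with 261 without 14 h replicate 1 and 282, 274 and 273 without 2 h replicates 1, 3 and 4. At 24 h it gave 664 to 1893 genes lower and 0 to 1 members, with 664, 728 and 748 without 14 h replicates 4, 5 and 1, and 791 and 1893 without 24 h replicates 3 and 5. The mt- sum at 14 h ran from 0.62 to 0.94. The Fastkd2 contrast ran from 1.77 to 2.42 at 8 h, -0.0744 to 0.20 at 24 h, -0.67 to -0.42 at 36 h and -0.47 to 0.0612 in morulae. Uncalled log2 changes that crossed 0 were Fastkd3 at 8 h (-0.30 to 0.0611), Fastkd1 (-0.0033 to 0.19) and Tfam (-0.43 to 5.89e-05) at 14 h, Fastkd2 at 24 h (-0.19 to 0.0139), Fastkd1 at 36 h (-0.22 to 0.0098) and Fastkd5 in morulae (-0.36 to 0.33).

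Title numbers did not pair the 2 h embryos with those of 8 h or 14 h: deviations of same-numbered embryos correlated from -0.10 to 0.518 and from -0.21 to -0.04, and 1 of 5 and 0 of 5 correlated best with their own number. With the number as a replicate block, 1401 genes and 2 members were called at 8 h, and 979 genes (232 of them higher) and 1 member at 14 h. Fastk, Tbrg4, Polrmt, Fastkd5 and Tfam had few counts per embryo before 36 h, so small changes in them were not detectable at this depth.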
